A study of Mus musculus with 12 samples.

Results

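The early growth response factors Egr1, Egr2, Egr3 and Egr4 and their corepressors Nab1 and Nab2 were examined in auditory cortex of acute brain slices, with the 6 genes taken by symbol from the 20989 loci of the expression files. Each gene had a single locus in the files, and all 6 passed the filter of a mean of at least 1 FPKM (fragments per kilobase of transcript, scaled to the mapped fragments of the library) over the 12 libraries. The mice were 4-week old C57bl6/J, and coronal slices of 350 µm were divided at the midline. From each of 6 mice, 1 hemisphere spent 1 h in control aCSF (artificial cerebrospinal fluid), and the other hemisphere spent 1 h in cocktail aCSF. The cocktail held 50 µM bicuculline methiodide, a blocker of inhibitory GABA-A receptors, together with 100 µM norepinephrine, 50 µM carbamoylcholine (an agonist of acetylcholine receptors), 100 µM dopamine, 100 µM serotonin and 40 µM ascorbic acid, always given together, so that the agents cannot be told apart. The study's methods, but not the labels, add a last rest of both hemispheres in plain aCSF for 1 h. Both hemispheres had first recovered in a choline chloride buffer and rested in aCSF, so the control is cut, recovering tissue and not the intact cortex. Polyadenylated RNA of the dissected auditory cortex, a mixture of all its cell types, was sequenced to ask which genes respond to the cocktail.

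Egr proteins are zinc-finger transcription factors that bind GC-rich sites. In neurons their genes are immediate-early genes: synaptic activity reaches them through calcium and the ERK kinase cascade, which act on serum response factor (SRF) with its Elk partners and on CREB at their promoters, and new transcripts appear without prior protein synthesis. Egr1 (Zif268) is widely used as a marker of recent neuronal activity, Egr2 (Krox20) is also required for the myelination of peripheral nerve by Schwann cells and for hindbrain patterning, Egr3 is required for muscle spindle development, and Egr4 is the member with the most divergent protein. Nab1 and Nab2 do not bind DNA themselves. They bind an inhibitory domain that Egr1, Egr2 and Egr3 share and mostly repress Egr-driven transcription, in part through the NuRD complex, and Nab2 is known from other cells as an Egr-induced gene that closes a negative feedback loop.

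Promoter sequence was read for the 4 members matched by symbol in the RefSeq promoter table of build GRCm38.p6, the assembly also called mm10, to show which activity-responsive and Egr-type motifs lie just before the start of genes that differed in their response. Each run below is the 250 bases before a transcription start, 5′ to 3′ on the gene's strand, with motif matches in capitals. Egr2 has 5 windows in the table, and the 1 at the start given in the files is shown. The windows are chr10:67537619-67537868 on the plus strand for Egr2, chr6:85513590-85513839 on the minus strand for Egr4, chr1:52500449-52500698 on the minus strand for Nab1 and chr10:127666704-127666953 on the minus strand for Nab2.
Egr2: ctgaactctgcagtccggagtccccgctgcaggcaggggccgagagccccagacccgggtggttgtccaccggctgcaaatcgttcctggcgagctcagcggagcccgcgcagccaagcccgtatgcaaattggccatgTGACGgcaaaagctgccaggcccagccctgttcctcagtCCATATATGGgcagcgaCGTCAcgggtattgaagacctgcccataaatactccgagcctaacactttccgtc
Egr4: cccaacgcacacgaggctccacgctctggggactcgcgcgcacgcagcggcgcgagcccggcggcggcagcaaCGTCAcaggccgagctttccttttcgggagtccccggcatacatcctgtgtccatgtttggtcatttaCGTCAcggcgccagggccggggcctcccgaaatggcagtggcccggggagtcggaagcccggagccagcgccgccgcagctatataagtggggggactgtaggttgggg
Nab1: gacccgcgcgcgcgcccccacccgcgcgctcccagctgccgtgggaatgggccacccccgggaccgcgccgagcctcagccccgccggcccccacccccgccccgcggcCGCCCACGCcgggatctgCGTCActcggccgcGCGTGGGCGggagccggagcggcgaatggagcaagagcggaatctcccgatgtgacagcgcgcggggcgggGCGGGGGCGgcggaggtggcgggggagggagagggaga
Nab2: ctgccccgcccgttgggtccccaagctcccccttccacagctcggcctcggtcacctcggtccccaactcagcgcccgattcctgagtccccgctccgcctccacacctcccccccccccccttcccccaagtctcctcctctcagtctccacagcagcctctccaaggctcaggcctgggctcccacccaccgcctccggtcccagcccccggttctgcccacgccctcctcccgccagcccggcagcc
The motifs searched on both strands were the CArG box bound by SRF (by name, with any A or T at its centre), the cyclic AMP response element TGACGTCA with its shorter core TGACG, which the full element contains, and the Egr site in the forms GCGTGGGCG and GCGGGGGCG.

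The Egr2 window held 1 CArG box, 72 to 63 bases before the start, and 2 matches to TGACG. Its last match, read on the opposite strand, lay 55 to 51 bases before the start. The Egr4 window held 2 matches to TGACG, both on the opposite strand, 177 to 173 and 109 to 105 bases before the RefSeq start, which lies 47 bases outside the locus given in the files. The Nab1 window held the GCGTGGGCG form at 2 places, 141 to 133 and 109 to 101 bases before the start, and the GCGGGGGCG form at 1 place, 38 to 30 bases before it, as well as 1 match to TGACG. The Nab2 window held 0 matches to any of the 5 motifs. The background was 32851 windows of the same length outside chromosome 18. Of these, 1.47% held a CArG box, 17.8% held TGACG, 1.55% held TGACGTCA, 0.536% held GCGTGGGCG and 2.57% held GCGGGGGCG. The 4 windows were richer in G and C (61.6%, 68%, 80.8% and 72.8% in the order shown) than the median window (52.4%), which bears on matches to GC-rich motifs. A match here is a run of letters and not a measured binding site. Of these 4 windows, the CArG box was found in that of Egr2 and the Egr-site forms in that of Nab1. The promoters of Egr1 and Egr3 were not searched, so their motifs are not known from this search.

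The number of reads behind each FPKM value could be recovered from its interval and came to between 10601067 and 19768881 per library. Over all loci, 180 of 12032 tested were called, meaning a limma adjusted p (Benjamini-Hochberg over all loci tested, with the mouse as a block) under 0.05. Control mouse 1 stood apart: it had the most reads, the lowest summed FPKM (290155, against 306085 to 321723 in the other control libraries) and the lowest median correlation with its own group (0.9841, against 0.9910 to 0.9930 in the others). Results that turned on it are given below with and without that mouse. The excitatory neuron genes Slc17a7 and Camk2a were at 689 ± 38 and 622 ± 42.2 FPKM in control (SD, n = 6). These levels do not tell which brain area was dissected. Of 43 tested marker genes of neurons, glia, vessels and choroid plexus, 0 were called by limma, 0 by voom on the recovered reads, and 2 had an unadjusted p under 0.05, with log2 fold changes from -0.20 to 0.18. Summed oligodendrocyte markers were 1998 to 2566 FPKM in control and 2301 to 2645 in cocktail libraries, and all 6 of their markers had a log2 fold change above 0 (median 0.12). The same held for 6 of 6 inhibitory neuron markers (median 0.08, summed levels of 480 to 540 and 511 to 557 FPKM) and both markers of oligodendrocyte precursors (median 0.14, 8.67 to 11.7 and 10.7 to 12.9 FPKM). Of 8 excitatory neuron markers, 3 had a log2 fold change above 0 and 5 below (median -0.05, summed levels of 1367 to 1512 and 1292 to 1482 FPKM). The part of these marker differences in the Egr response was not tested. In bulk tissue, fewer cells of a type and less RNA per cell cannot be told apart.

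All 4 Egr genes were transcribed at substantial levels in control slices, and the levels of the 6 genes fell in the order Egr1, Egr4, Egr3, Egr2, Nab2, Nab1 in both conditions. In control libraries the mean was 555 ± 33.5 FPKM for Egr1, 213 ± 26.6 for Egr4, 149 ± 20 for Egr3 and 30.7 ± 1.17 for Egr2 (SD, n = 6). Egr1 was at rank 32 among all 12032 loci by mean control FPKM and Egr4 at rank 173, whereas Nab2, at 12.9 ± 1.99 FPKM, and Nab1, at 6.34 ± 0.649 FPKM, were at ranks 5085 and 7737. The corepressors were low in level beside the factors: in control the summed FPKM of Egr1, Egr2 and Egr3, the members they bind, was 38.4 ± 3.37 times that of the Nab genes (SD, n = 6), and with Egr4 it was 49.5 ± 4.6 times. The order of neighbours held in 6 of 6 libraries of each condition on the bias-corrected FPKM, and was not checked on another scale. Each exact p was 0.03125 (two-sided sign-flip permutation test, the smallest that 6 libraries allow), and 0.0312 after adjustment over the 5 neighbour pairs. The narrowest gap was Egr4 over Egr3 in control, with a ratio of 1 to 1.82 (geometric mean 1.43), since control mouse 2 had nearly equal values of 161 FPKM for both genes. In cocktail libraries that ratio was 1.85 to 3.03 (geometric mean 2.27), and Egr1 over Egr4 narrowed from 2.63 to 1.94.

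**Figure D1:**
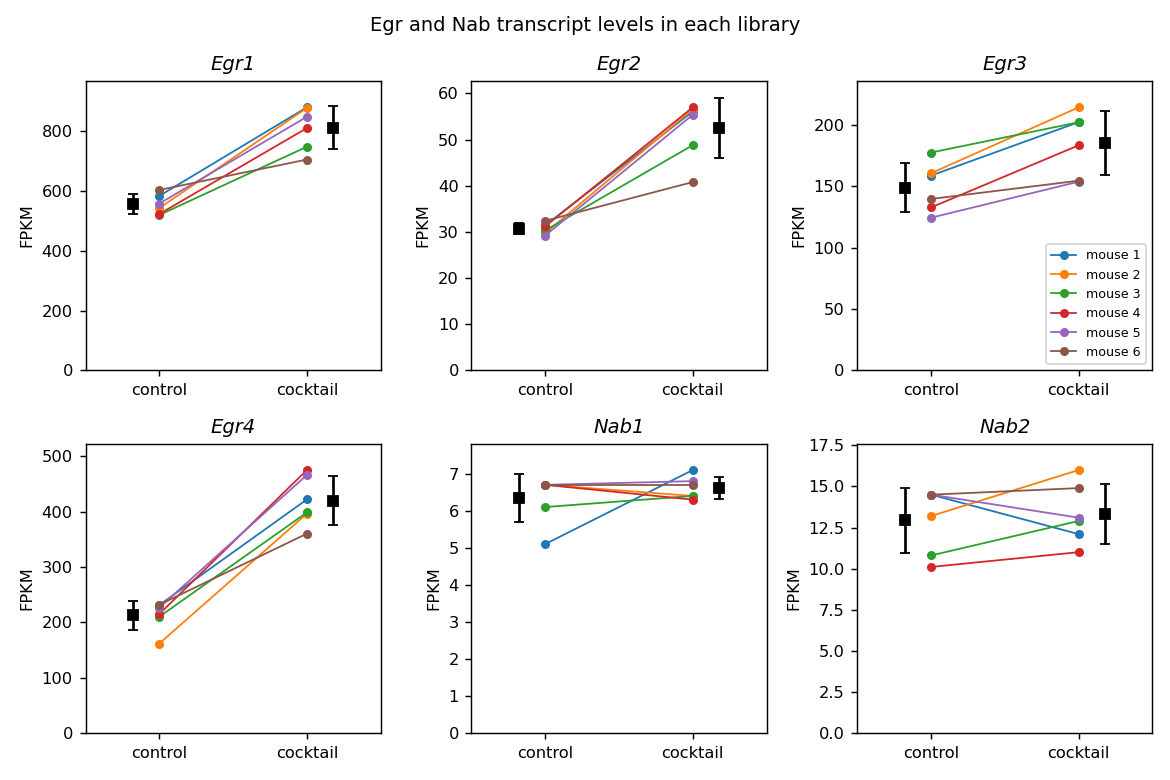
FPKM (y axis, starting at 0, a separate scale for each gene) of Egr1, Egr2, Egr3, Egr4, Nab1 and Nab2 in control and cocktail libraries, with a coloured line joining the hemispheres of each of 6 mice and black squares with bars for the group mean ± SD (n = 6). Every line rises for the 4 Egr genes, whereas the lines of Nab1 and Nab2 go both ways.

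Egr4 had the largest response of the 6 genes by fold. The gene lies on chromosome 6 (85511122 to 85513542, mm10, as in the files). Its FPKM in mice 1 to 6 was 231, 161, 210.0, 215, 227 and 232 in control and 422, 396, 398, 475, 466 and 360.2 in cocktail hemispheres, so that the lowest cocktail value exceeded the highest control value. The log2 fold change, which like all those below is on the log2(FPKM + 1) scale, was 0.98 (SE 0.072, 95% interval 0.82 to 1.14), a fold of 1.97, with a limma adjusted p of 1.75e-05, and it was higher in 6 of 6 mice (exact sign-flip permutation p = 0.03125). By log2 fold change Egr4 was at rank 8 of 12032 loci, and its level rose from rank 173 to rank 56. Between 3195 and 9234 reads lay behind each of its values. Of the 6 members, 4 were called higher and 0 lower, where 1.22% of all loci tested were called higher. All control libraries lay below all cocktail libraries for 3 members (Egr1, Egr2 and Egr4), where 0.715% of all loci tested had such groups.

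Egr2, the factor known from nerve myelination and hindbrain, had the lowest level of the Egr genes and a response second to Egr4. It lies on chromosome 10 (67537869 to 67542188), and, as for Egr1, Egr3, Egr4 and Nab1, no exon of another gene overlaps its exons in GENCODE M21. In mice 1 to 6 its FPKM was 31.4, 29.7, 30.3, 31.2, 29.2 and 32.4 in control and 56.1, 56.6, 48.8, 57.0, 55.4 and 40.8 in cocktail hemispheres. The control values were the tightest of the set, with a coefficient of variation of 3.8%, and the cocktail values spread more widely (12.3%), with mouse 6 lowest. The log2 fold change was 0.74 (SE 0.072, interval 0.59 to 0.90), a fold of 1.68, with a limma adjusted p of 0.000132, and the rise was seen in 6 of 6 mice. Its level moved from rank 2287 to rank 1290 of all loci, on 1008 to 2890 reads per library.

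Egr1, the most abundant member, rose by a smaller fold but by the most in FPKM. Its locus is on chromosome 18 (34861207 to 34864956). Its FPKM in mice 1 to 6 was 584, 543, 520, 523, 558 and 604 in control and 881, 879, 749, 811, 849 and 706 in cocktail hemispheres, so the groups did not overlap. The log2 fold change was 0.55 (SE 0.060, interval 0.41 to 0.68), a fold of 1.46, with a limma adjusted p of 0.000363 and a rise in 6 of 6 mice. The mean difference was 257 ± 83.3 FPKM (SD, n = 6), and the gene moved from rank 32 to rank 12 of all loci by level. Between 15824 and 37919 reads lay behind each value, so counting error was at most 0.79%, below the coefficients of variation of 6.02% in control and 8.85% in cocktail libraries.

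Egr3, the member known for muscle spindle development, had the smallest Egr response, and its groups overlapped. It lies on chromosome 14 (70077445 to 70082613). Its FPKM was 159, 161, 178, 133, 124 and 140 in the control and 203, 215, 202, 184, 154 and 155 in the cocktail hemispheres of mice 1 to 6. The range between mice, 124 to 178 FPKM in control alone, was wider than the mean difference between conditions of 36.2 ± 15.5 FPKM: mouse 5 was lowest in both conditions, and mice 1 to 3 were the 3 highest in both. Within each of the 6 mice the cocktail hemisphere was the higher, and reads per library (4747 to 11707) left counting error at 1.5% or less. The log2 fold change was 0.31 (SE 0.051, interval 0.20 to 0.42), a fold of 1.24, with a limma adjusted p of 0.0081. The call was lost without the mouse as a block (limma adjusted p = 0.335, log2 fold change 0.31). It was narrowly lost without mouse 4 (limma adjusted p = 0.0517), where the log2 fold change was 0.28. Higher in all 6 mice were 4 of the 6 members, against 3.64% of all loci tested.

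Neither corepressor was called. Nab1 lies on chromosome 1 (52455849 to 52500448), and its FPKM in mice 1 to 6 was 5.10, 6.71, 6.14, 6.66, 6.71 and 6.74 in control and 7.07, 6.36, 6.40, 6.34, 6.85 and 6.66 in cocktail hemispheres. It was higher in 3 mice and lower in 3, with a log2 fold change of 0.06 (SE 0.067, interval -0.09 to 0.20), a limma adjusted p of 0.896 and an exact permutation p of 0.75. The lowest control value came from control mouse 1, the library that stood apart, and without mouse 1 the log2 fold change was -0.01. Its values rest on 403 to 726 reads per library, a counting error of up to 5%. The 95% interval for its fold was 0.939 to 1.15, which meets the interval for Egr3, 1.15 to 1.34, at its upper end.

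Nab2 lies on chromosome 10 (127660918 to 127666703), the chromosome that also carries Egr2. Its FPKM was 14.5, 13.2, 10.8, 10.1, 14.5 and 14.5 in control and 12.1, 16.0, 12.9, 11.0, 13.1 and 14.9 in cocktail hemispheres of mice 1 to 6. It was higher in 4 mice and lower in 2, and the groups overlapped. The log2 fold change was 0.04 (SE 0.069, interval -0.11 to 0.20, limma adjusted p = 0.926, exact permutation p = 0.59375), and 0.10 without mouse 1. With 472 to 1380 reads per library, counting alone gave an error of up to 4.6%, smaller than the coefficients of variation of 15.4% in control and 13.4% in cocktail. The fold interval was 0.928 to 1.15. Nab2 is on the minus strand, and in the GENCODE M21 annotation its 2941 exon bases share 40 with Stat6, 151 with Nemp1 and 1050 with the antisense gene Gm16229, all on the plus strand. Stat6 was at 3.19 ± 0.268 FPKM in control and 2.98 ± 0.143 in cocktail (log2 fold change -0.07, limma adjusted p = 0.839), and Nemp1 at 1.13 ± 0.21 and 1.2 ± 0.2 (0.05, adjusted p = 0.928). The libraries were made with a kit that keeps strand, but the strand setting used for the FPKM is not given in the sources used here, so a part of the Nab2 value from the antisense gene cannot be told apart. Gm16229 is not among the loci analysed here.

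The 6 genes can be compared directly by the within-mouse log2 difference of cocktail over control. Over the 15 pairs of members, 12 kept a single order in all 6 mice, each with an exact sign-flip permutation p of 0.03125 and 0.0391 after adjustment over the 15 pairs. All 6 pairs of Egr genes were among them. Egr4 exceeded Egr3 by 0.67 (range over mice 0.49 to 0.88), Egr2 exceeded Egr3 by 0.43, Egr4 exceeded Egr1 by 0.44, Egr1 exceeded Egr3 by 0.23 and Egr2 exceeded Egr1 by 0.20 on the log2 scale. Egr4 exceeded Egr2 by 0.24 (SD 0.12), but on RPM (recovered reads scaled to the library total, without the bias correction of the FPKM) the difference was 0.13 (SD 0.15) with the same order in 4 of 6 mice (exact permutation p = 0.125, adjusted 0.134). The order of Egr4 and Egr2 therefore held on the FPKM scale and not on the RPM scale, on which 11 of the 15 pairs kept a single order. That scale was tried after the data were seen. Egr3 exceeded Nab1 by 0.25 and Nab2 by 0.27 in 5 of 6 mice each (exact permutation p = 0.0625, adjusted 0.067), where the RPM scale gave 0.32 over Nab2 in 6 of 6 mice (exact permutation p = 0.03125, adjusted 0.0426) and 0.22 over Nab1 in 5 of 6 (exact permutation p = 0.125, adjusted 0.134). The mouse that went the other way for Egr3 and Nab1 was mouse 1, and without it the difference was 0.32 on FPKM and 0.31 on RPM, with Egr3 the higher in 5 of 5 mice. Without mouse 1, 13 of the 15 pairs kept a single order on FPKM. Nab1 and Nab2 differed by 0.01 (range -0.33 to 0.64, exact permutation p = 1). The other 6 of the 8 pairs of an Egr with a Nab gene kept a single order in every mouse, although Egr1 exceeded Nab1 by 0.40 in 5 of 6 mice on the RPM scale (exact permutation p = 0.0625), and by 0.50 in 5 of 5 mice without mouse 1. Without that mouse Egr4 exceeded Egr2 by 0.27 on FPKM and by 0.17 in 4 of 5 mice on RPM.

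**Figure D2:**
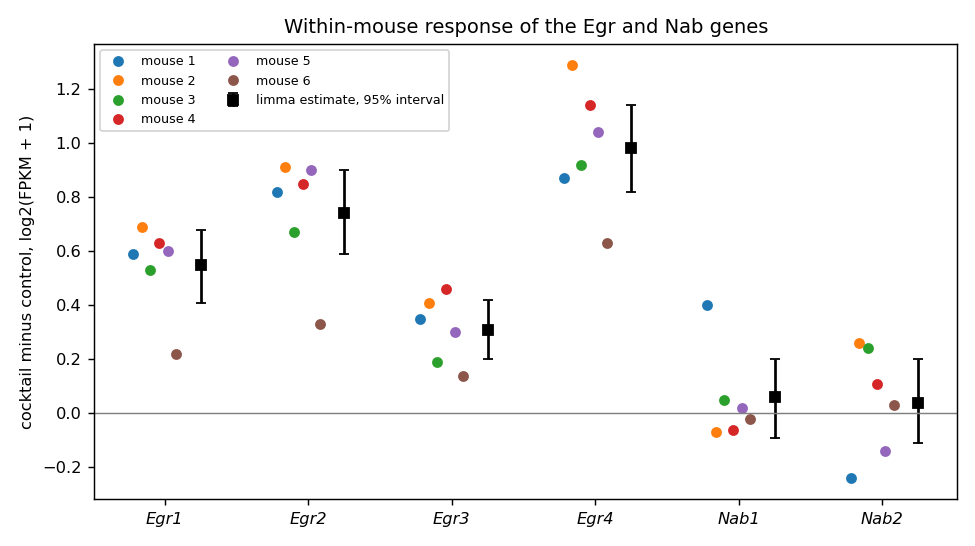
Within-mouse log2 difference of FPKM + 1, cocktail minus control (y axis), for each of the 6 members (x axis), with 1 point per mouse coloured by mouse number, and black squares with bars for the limma estimate and its 95% interval. All points of the 4 Egr genes lie above 0, with mouse 6 lowest in each, while the points of Nab1 and Nab2 lie on both sides of 0.

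Mouse 6 had the smallest within-mouse rise for all 4 Egr genes, at 0.22 for Egr1, 0.33 for Egr2, 0.14 for Egr3 and 0.63 for Egr4. Mouse 2 had the largest rise of Egr1 (0.69), Egr2 (0.91) and Egr4 (1.29), and mouse 4 had the largest rise of Egr3 (0.46). For the Nab genes the smallest difference was that of mouse 2 for Nab1 (-0.07) and mouse 1 for Nab2 (-0.24). These ranks describe 6 animals, and the Egr genes of a library share its RNA.

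The RPM behind 1 FPKM differed between libraries, from 1.12 to 1.55 for Egr4 and from 3.34 to 4.81 for Nab2, and control mouse 1 was the highest for both. It was highest too for Egr1, Egr2 and Egr3 (2.91 against 2.34 to 2.51 in the other 11 libraries for Egr1), but not for Nab1. On the RPM scale the mean within-mouse log2 ratio was 0.85 for Egr4, 0.72 for Egr2, 0.48 for Egr1, 0.30 for Egr3, 0.08 for Nab1 and -0.03 for Nab2, with all 4 Egr genes higher in 6 of 6 mice (exact permutation p = 0.03125). Without mouse 1 these were 0.92, 0.75, 0.51, 0.31, 0.00 and 0.07.

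Summed over the 4 genes, the Egr level was 948 ± 48.8 FPKM in control (range 895 to 1008) and 1470 ± 117 in cocktail hemispheres (1262 to 1561), a rise of 522 ± 147. Egr1 made up 48.4% ± 4.7 of that rise and Egr4 40.7% ± 5.68 (SD over 6 mice). Because Egr4 rose by the larger fold, its share of the Egr total went from 22.4% ± 2.23 to 28.6% ± 2.08, while Egr1 went from 58.6% ± 1.87 to 55.3% ± 1.55 and Egr3 from 15.8% ± 2.27 to 12.6% ± 1.55. Egr2 held 3.24% ± 0.13 and 3.56% ± 0.177. The Nab genes summed to 19.3 ± 1.99 and 19.9 ± 1.77 FPKM, and the ratio of the sum of all 4 Egr genes to the Nab sum was 49.5 ± 4.6 in control and 74.3 ± 10.1 in cocktail. Without Egr4 the ratio was 38.4 ± 3.37 and 53 ± 6.69. These ratios are of transcripts, and no protein was measured.

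**Figure D3:**
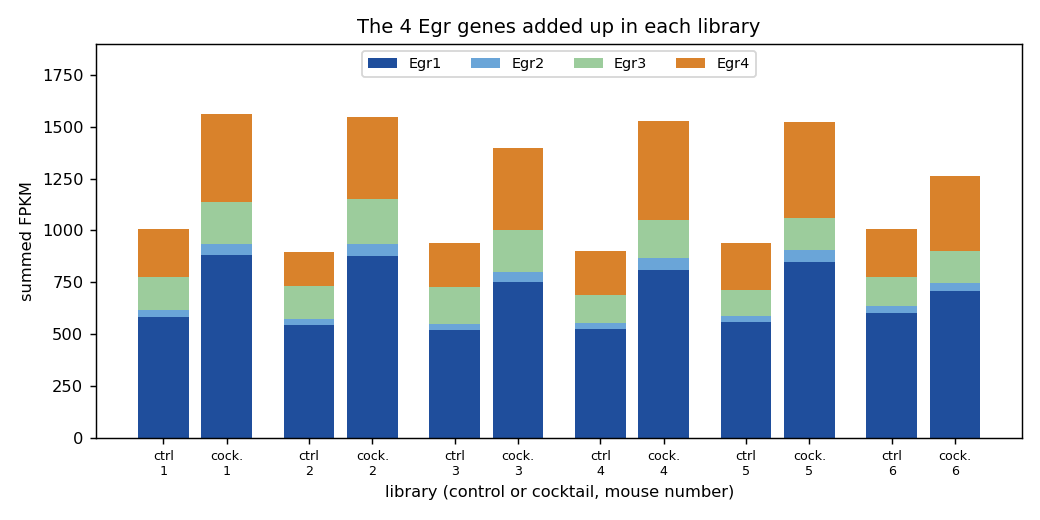
Summed FPKM of the 4 Egr genes (y axis, starting at 0) in the control and cocktail hemisphere of each of 6 mice, stacked by gene. The control bars reach 895 to 1008 and the cocktail bars 1262 to 1561.

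Of the 19 genes upstream of Egr transcription (ERK cascade kinases, SRF, Elk and Mkl partners, CREB and its coactivators), all were tested and 0 were called by limma or by voom, and 2 had an unadjusted p under 0.05. Their median log2 fold change was -0.01 (range -0.12 to 0.18), beside 0.008 over all loci tested. Srf, which encodes the factor known to bind CArG boxes, was at 24.5 ± 1.02 FPKM in control and 27.8 ± 1.24 in cocktail. Its log2 fold change was 0.18 (SE 0.049, limma adjusted p = 0.148), and it was higher in 6 of 6 mice, as were 3.64% of all loci tested. In the same list Crebbp (-0.09) and Ep300 (-0.10) were lower in 6 of 6 mice and likewise not called. Of the 19 upstream genes, 13 had a log2 fold change below 0 and 6 above. Binding to the Egr2 match was not measured. These proteins are regulated mainly by phosphorylation, which RNA does not measure. Of 14 corepressor genes (NuRD and Ddx20), 0 were called by limma or voom and 1 had an unadjusted p under 0.05 (median log2 fold change 0.04, range -0.04 to 0.16). Of 10 factors that read similar GC-rich sites, 9 were tested, 0 were called by limma or voom and 1 had an unadjusted p under 0.05, and Wt1, a factor of kidney and gonad at 0.0296 ± 0.0257 FPKM in control and 0.0485 ± 0.022 in cocktail, lay below the filter. With 1.22% of all loci called higher and 0.274% lower, counts of 0 in lists of this size are near the background and are no result about the lists.

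Among 22 genes described in earlier work as Egr targets, 19 were tested (Ngfr, Th and Fgf2 lay below the filter), 1 was called higher and 1 lower, where 1.22% and 0.274% of all loci were. Arc, which encodes a dendritic protein of synaptic plasticity, rose from 270 ± 27 to 477 ± 42.1 FPKM (log2 fold change 0.82, SE 0.063, limma adjusted p = 2.18e-05, 6 of 6 mice), and is itself an immediate-early gene. Icam1, an adhesion molecule of endothelium and leukocytes, fell from 11.2 ± 1.96 to 7.93 ± 2.51 FPKM, by 0.48 on the log2 scale (SE 0.080, limma adjusted p = 0.00971), lower in 6 of 6 mice, although its groups overlapped (8.9 to 14.3 in control, 6.01 to 12.7 in cocktail). Its call was lost without the mouse as a block (adjusted p = 0.276) and with no filter on low values (0.0594), with the log2 fold change at -0.48 in both fits. The neuronal targets Cdk5r1 (0.02), Syn1 (-0.04), Syn2 (-0.00) and Gabra4 (0.01) had log2 fold changes near 0 and were not called. The median over the 19 was 0.02 (range -0.48 to 0.82). All lists here were written with earlier results of these data known, and their counts are descriptions.

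**Figure D4:**
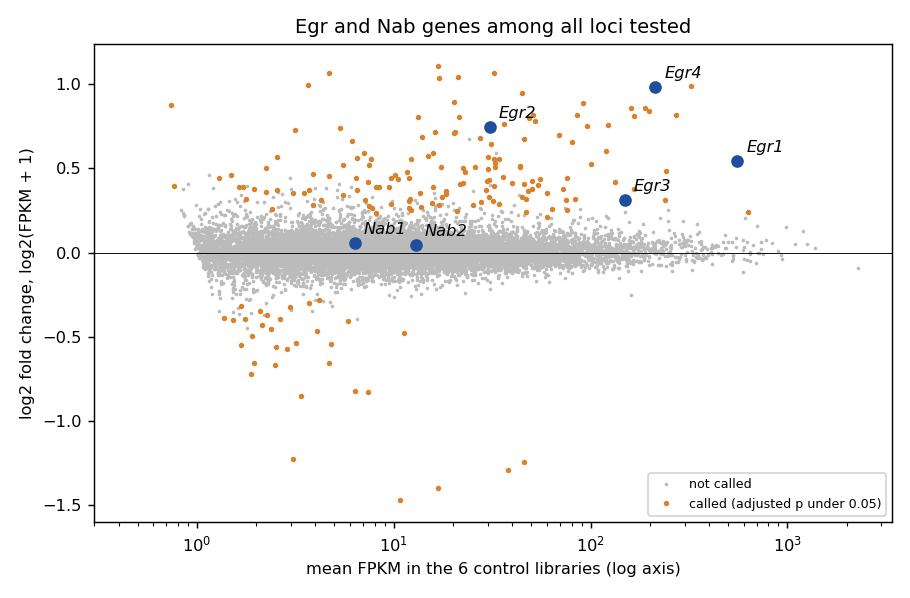
Mean FPKM of the 6 control libraries on a log axis (x) against the limma log2 fold change, cocktail minus control (y), for all 12032 loci tested, with the 180 loci called in orange, the others in grey and the 6 members in blue. The 4 Egr genes lie above the bulk of the loci, with Egr4 highest and Egr1 farthest to the right, whereas Nab1 and Nab2 lie near 0.

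The loci most like each member over the 12 libraries were found by Pearson r of log2(FPKM + 1) among 8516 loci with a mean of at least 5 FPKM. The 12 points are 6 pairs of hemispheres in 2 conditions, so that r contains both the treatment and the mouse, and it is given with no test. Most like Egr1 were Arc (0.977), the ERK phosphatase gene Dusp5 (0.973) and the kinase gene Sik1 (0.966). Egr2 was most like Rgs2 (0.967), Dusp6 (0.959) and Arc (0.955), and Egr4 was most like Fosb (0.981), Arc (0.969) and Nr4a1 (0.969). Egr3 had a different set, led by the synaptic pentraxin gene Nptx2 (0.978), the neurotrophin gene Bdnf (0.924) and Ccrn4l (0.898). Of these, Nptx2 had a log2 fold change of 0.66 (limma adjusted p = 6.46e-05), and Bdnf of 0.35 (limma adjusted p = 0.0338). The call of Bdnf was lost in 7 of 15 alternative fits, with adjusted p up to 0.864, and that of Nptx2 without the mouse as a block (0.0519), while their log2 fold changes stayed at 0.30 to 0.45 and 0.59 to 0.70. Among the members, Egr1, Egr2 and Egr4 had r of 0.94 to 0.98 with each other, Egr3 had 0.56 to 0.69 with them, and the Nab genes had -0.10 to 0.26 with the Egr genes. Most like Nab1 were Snx10 (0.948), Aida (0.944) and Chp1 (0.941), and most like Nab2 were Ephb3 (0.891), Eya3 (0.751) and Spata2l (0.742), none of them called.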

How the data were processed

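RNA of 12 auditory cortices, 6 control and 6 cocktail hemispheres of the same 6 mice, was analysed. All libraries shared 1 lane. Per the labels and the study's methods, the authors removed ribosomal reads with BWA 0.6.1, aligned the rest to mm10 with TopHat 1.4.1 and estimated the deposited FPKM per locus with Cufflinks 1.3.0, with bias correction. The deposited table made with HTSeq 0.6.1p1 and DESeq2 1.6.3 holds the authors' own comparison and pooled means and was not used. Reads behind each FPKM were recovered from its interval, which spans 2 Poisson standard deviations on either side: of 36412 values under 20 reads, 82.8% were whole within 0.05. Recovered totals were 10601067 to 19768881 in control and 13544297 to 17643462 in cocktail libraries, and errors from reads cover counting error only.

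The limma 3.58.1 test (R 4.3.3) was run on log2(FPKM + 1), a scale that understates the change of low genes, for loci averaging 1 FPKM or more, with the mouse as a block, a mean-variance trend and Benjamini-Hochberg correction across them. Single genes and pairs of genes were tested with exact two-sided sign-flip permutations over 6 mice. The mouse id in the labels pairs the libraries. Deviations from the group mean correlated at a median of 0.337 within mice (0.216 to 0.406, 6 pairs). Between mice the median was -0.0714, and its range covered that within mice (-0.42 to 0.445, 30 pairs). No library copied another, with a chi-square per gene between libraries of 7.32 to 39.51 in control and 8.64 to 26.91 in cocktail.

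The members, the lists and the rule for named genes were chosen with earlier results of these data known. The rule names all members, Wt1 and Srf, genes called in each list, genes whose exons overlap a member, and the 3 loci most like each member. Genes given beyond it (the neuronal targets, the cell type markers, Crebbp and Ep300) were chosen after their values were seen. Alternatives were no block, other filters, pseudocounts, scalings and variance models, voom on recovered reads, and leaving out each mouse. The comparison of pairs on RPM was added after the data were seen. Plots used matplotlib 3.10.9 in Python 3.11.15.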

Additional observations from a re-analysis of the deposited data

Results flagged for a closer look

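Of 18 groups of 6 values examined (each member in control, in cocktail and as within-mouse differences), 4 held a value farther from its neighbours than Dixon's critical ratio for 6 values, where chance flags about 1 in 20 groups, or 0.9 of 18. For Egr1, mouse 6 had a log2 difference of 0.22 between its hemispheres, and the other mice had 0.53 to 0.69. Egr4 was at 161 FPKM in control mouse 2, against 210.0 to 232 in the other control libraries. Nab1 was at 5.10 FPKM in control mouse 1, against 6.14 to 6.74, and its within-mouse log2 difference in that mouse was 0.40, against -0.07 to 0.05. Control mouse 1 is the library that stood apart in depth and in summed FPKM, and its part in the Nab1 values was not tested beyond leaving it out.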

How the results depend on the processing

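Egr1, Egr2 and Egr4 were called under all 15 alternatives, with log2 fold changes of 0.48 to 0.61, 0.71 to 0.83 and 0.85 to 1.05, and Nab1 and Nab2 under none of them (-0.01 to 0.08 and -0.05 to 0.10). Egr3 was called under 13 of the 15. Without the replicate block its log2 fold change was 0.31 with a limma adjusted p of 0.335, and leaving out each mouse gave 0.28 to 0.34, with an adjusted p of 0.0517 without mouse 4. Over all loci, 180 were called, against 88 without the replicate block (77 higher, 11 lower), 118 with voom on recovered reads (99 higher, 19 lower) and 104 (without mouse 4) to 181 (without mouse 6) when each mouse was left out. The Egr targets called went from 2 to 1 without the replicate block. No called result changed direction. Without the block Icam1, Nptx2 and Bdnf also lost their calls, and no other member did. Ccrn4l was called in 1 of the 15 (adjusted p = 0.0461, median of ratios scaling). The order of Egr4 over Egr2 and of Egr1 over Nab1 lost its call on RPM. With 6 mice, the exact tests cannot go below 0.03125.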
